A study of Homo sapiens with 192 samples.

Results

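HCT116 is an established human colon carcinoma cell line, and the growth response described here is the difference between its cells grown in 3D and in 2D culture. The members are the 6 HCT116 libraries among the 24 libraries of the series, 3 from cells grown in 3D (3D-1, 3D-2 and 3D-3) and 3 from cells grown in 2D (2D-1, 2D-2 and 2D-3), chosen by their labels. The other 18 libraries come from the CRC lines HT29, LS513 and LS174T under the same pair of growth conditions. All HCT116 cells were kept in McCoy medium with serum and antibiotics, whereas the other lines were kept in DMEM, and no drug, gene edit or time course separates the groups. The study grew spheroids in low attachment plates for its growth assays, but the sources do not say whether the 3D cultures for RNA were formed in this way, and the labels do not say whether libraries with different numbers came from separate cultures, so that p-values measure the spread between these libraries.

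A monolayer gives every cell the same access to medium and a flat, stiff surface to spread on. In a multicellular aggregate, cells touch other cells on most sides, oxygen and nutrients fall towards the centre, and division slows away from the rim. Transcript programmes that are known to follow such changes are the hypoxia response driven by HIF transcription factors, the cell cycle programmes driven by E2F, B-MYB and FOXM1, cell junction and matrix receptor genes, and, in some tumour lines, the interferon response. In that last programme type I or III interferons bind their receptors, the kinases JAK1 and TYK2 phosphorylate transcription factors such as STAT2, which joins IRF9 in the complex ISGF3, and this complex binds the interferon-stimulated response element and switches on antiviral genes.

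Depth was even, with 29705702 to 31925024 counts per HCT116 library, and 3 counts, taken as the floor of detection, correspond to 0.094 to 0.101 CPM (counts per 1000000 counts). The floors and the counting intervals given below cover counting error only. All values below are CPM on the TMM scale, listed for 2D-1, 2D-2 and 2D-3 and then for 3D-1, 3D-2 and 3D-3, and fold changes are log2 of 3D over 2D. CPM is a share of a library, so that fewer cells of one kind and less RNA per cell cannot be told apart. The epithelial markers EPCAM, CDH1, KRT8, KRT18, KRT19 and CLDN7 summed to 127858 to 188556 counts per library. Of the leukocyte and fibroblast markers, PTPRC, CD3E, COL1A2, DCN and LUM were at 0 counts in all 6 libraries. The 6 immune markers summed to 358, 331 and 428 counts in 2D and to 1437, 1273 and 1091 in 3D, nearly all of them from CD68, a lysosomal membrane gene with 348, 315 and 409 counts in 2D and 1413, 1258 and 1075 in 3D. The 6 fibroblast markers summed to 305 to 665 counts and the 4 endothelial markers to 14 to 57 counts per library. Nearly all fibroblast marker counts came from the collagen gene COL1A1, with 430, 501 and 461 counts in 2D and 655, 504 and 296 in 3D. Library 3D-1 stood apart in its mitochondrial share, since transcripts of the mitochondrial genome took 6.4% of its counts, against 2.45% and 1.66% in 3D-2 and 3D-3 and 1.14% to 1.84% in 2D.

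Growth in 3D moved a large part of the transcriptome. Of 19387 genes tested with edgeR's quasi-likelihood test, 3253 (16.8%) were higher in 3D and 2384 (12.3%) were lower at a Benjamini-Hochberg adjusted p under 0.05. The increases were larger than the decreases: the median log2 fold change was 0.79 among the genes called higher and -0.50 among those called lower. With a log2 fold change of at least 1 required, 1218 genes (6.28%) were higher and 183 (0.944%) were lower, and at 3 or more the counts were 124 higher and 6 lower. The median over all tested genes was 0.01, and the middle 90% lay between -0.75 and 1.51. Of the 5637 called genes, 5208 had no overlap between the 2D and 3D libraries, whereas 7837 of all tested genes had none. The number of lower calls was 1530 without 2D-1, 1595 without 2D-2, 1760 without 3D-2 and 1851 without 3D-1. It was 2870 without 2D-3 and 2499 without 3D-3. The number lower by at least 1 was 115 without 2D-2, 314 without 2D-3 and 282 without 3D-1.

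The libraries parted by growth condition on the first principal component, which held 59.5% of the variance. On it, 2D-1, 2D-2 and 2D-3 scored -50.3, -45.1 and -27.3 and the 3D libraries 47.7, 44.9 and 30.1, so that 2D-3 and 3D-3 were the libraries nearest to the opposite condition. Distances between the 2D libraries were 48.9 to 60.8, those between the 3D libraries 57.2 to 77.9, and those across growth conditions 83.3 to 108.

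**Figure D1:**
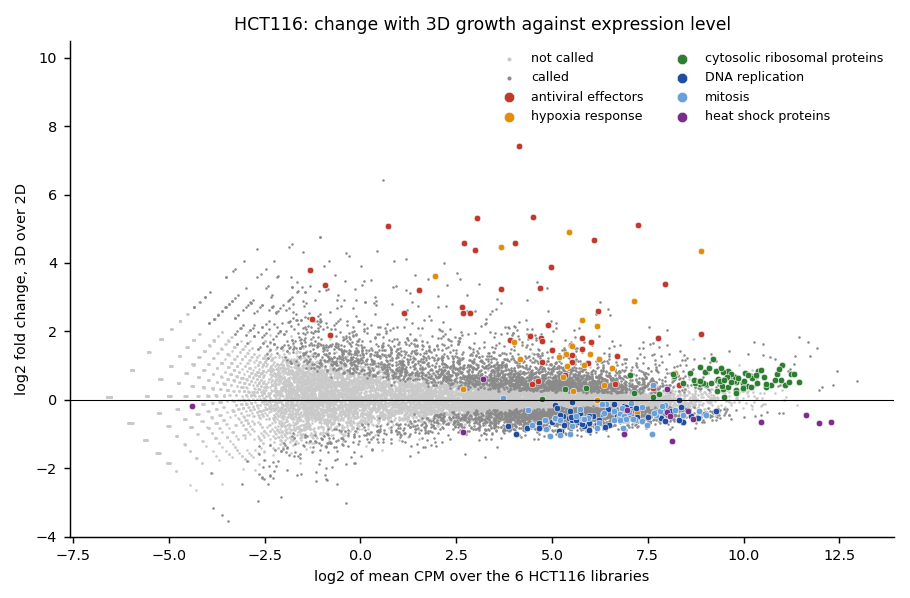
Log2 fold change of 3D over 2D (vertical axis) against log2 of the mean CPM of the 6 HCT116 libraries (horizontal axis) for the tested genes, without the 1122 that are at 0 in every library of one condition. Dark grey points were called at an adjusted p under 0.05. Antiviral effectors and hypoxia genes form the upper edge over a wide range of expression, ribosomal protein genes sit just above 0 at the right, and DNA replication, mitosis and heat shock genes sit below 0.

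Interferon-stimulated antiviral effectors rose as a group. All 50 members tested were called higher, against 16.8% of all tested genes, and 44 of them passed a log2 fold change of 1. Their median log2 fold change was 2.45, or 2.27 with the members at 0 in 2D set at their lower bound, beside 0.01 for all tested genes. Summed over the list, 1370, 1290 and 1360 CPM in 2D stood against 4730, 4460 and 3360 CPM in 3D.

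IFI6, an interferon-induced membrane protein gene (chr1:27666061-27672218, minus strand, GRCh38), had the smallest p of all tested genes. It was at 8.31, 7.42 and 9.75 CPM in 2D and at 371, 303 and 208 CPM in 3D, a log2 fold change of 5.11 ± 0.19 (SE) with an adjusted p of 2.47e-14. Each 3D library was far above each 2D library, and 3D-3 was the lowest 3D library. OAS1, which makes 2′-5′ oligoadenylate and so activates RNase L, rose from 1.03, 0.949 and 1.25 CPM to 53.7, 48.9 and 30 CPM (log2 5.36 ± 0.25, adjusted p = 7.16e-13). IFIT1, which binds RNA that lacks a host cap, rose from 3.62, 5.32 and 6.48 CPM to 149, 144 and 102 CPM (log2 4.68 ± 0.21, adjusted p = 3.51e-13). In both genes the groups were far apart and 3D-3 was again the lowest 3D library. ISG15, a ubiquitin-like modifier, rose from 39.1, 34.5 and 56.8 CPM to 516, 433 and 402 CPM (log2 3.37 ± 0.18, adjusted p = 5.12e-12). BST2, which tethers virions to the cell surface, rose from 0.544, 0.201 and 0.449 CPM to 22.9, 15.3 and 9.69 CPM (log2 5.32 ± 0.31, adjusted p = 1.94e-11).

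Other families of effectors moved with these. All 7 IFIT and IFITM genes were higher, with a median log2 fold change of 3.23, as were all 6 OAS and MX genes, with a median of 3.21. The 8 genes of ISG15-type modification and TRIM proteins were higher by a median of 1.39. MX1, a GTPase that traps viral nucleocapsids, stayed at a low level, with 0.695, 0.604 and 0.61 CPM in 2D and 5.02, 3.43 and 2.77 CPM in 3D (log2 2.55, adjusted p = 2.55e-06). The smallest change of the list was that of LY6E, with 167, 151 and 205 CPM in 2D and 223, 221 and 220 CPM in 3D (log2 0.34, adjusted p = 0.0251), and its adjusted p reached 0.159 without 2D-2. ZC3HAV1 was the only member whose 2D and 3D libraries overlapped (log2 0.47, adjusted p = 0.0189, or 0.159 without 2D-3). IFITM1, IFITM2 and IFITM3 are close copies of each other, and reads that aligned to more than 1 place had been removed, so that their separate levels are uncertain.

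A further 4 effectors had no count in any 2D library, so that only a bound can be given. IFI44L had 40, 25 and 9 counts in the 3D libraries, which is at least 8.97-fold higher than the floor of 3 counts per 2D library. XAF1 had 34, 23 and 3 counts, at least 7.26-fold higher, and MX2 had 18, 15 and 9 counts, at least 5.09-fold higher. RTP4 had 2, 4 and 1 counts in 3D, under the floor on average, and gets no fold.

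**Figure D2:**
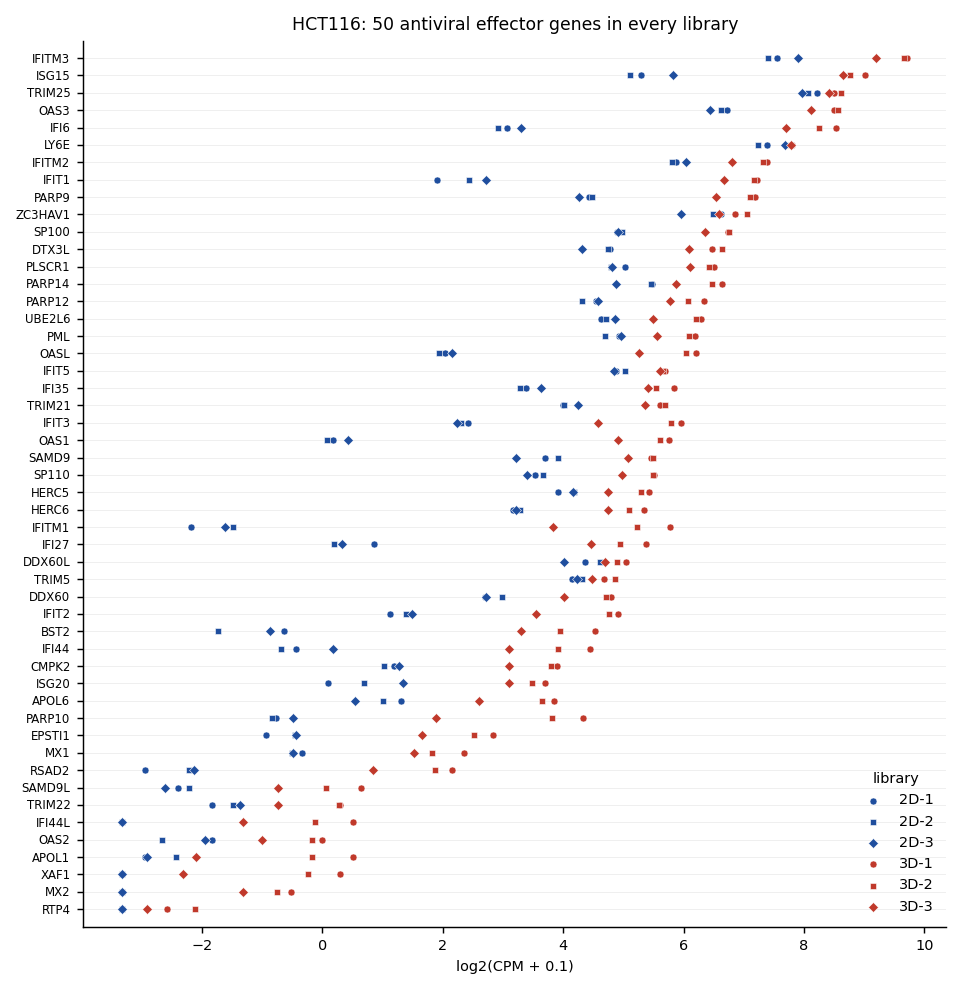
Level of each of the 50 antiviral effector genes in every HCT116 library, as log2(CPM + 0.1), with 2D libraries in blue and 3D libraries in red and genes ordered by their mean in 3D. The red points lie to the right of the blue ones for every gene except ZC3HAV1, and the red diamond of 3D-3 is the leftmost red point in all 50.

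The 3D libraries were not alike in this response. 3D-3 had the lowest level of the 3 in 50 of 50 antiviral effectors, and 3D-1 had the highest in 41 of 50. The list median over the 2D mean was 2.26 in 3D-1, 2.07 in 3D-2 and 1.51 in 3D-3 on the log2(CPM + 0.1) scale. The same order appeared in the hypoxia list, at 1.41, 1.25 and 0.94, and in class I antigen presentation, at 1.11, 1.01 and 0.63. In the other direction, the mitosis list was at -0.67, -0.55 and -0.36 and the DNA replication list at -0.59, -0.58 and -0.38. The sterol synthesis list did not follow this order, with 0.62, 0.63 and 0.67, nor did the cytosolic ribosomal proteins, with 0.50, 0.53 and 0.66.

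**Figure D3:**
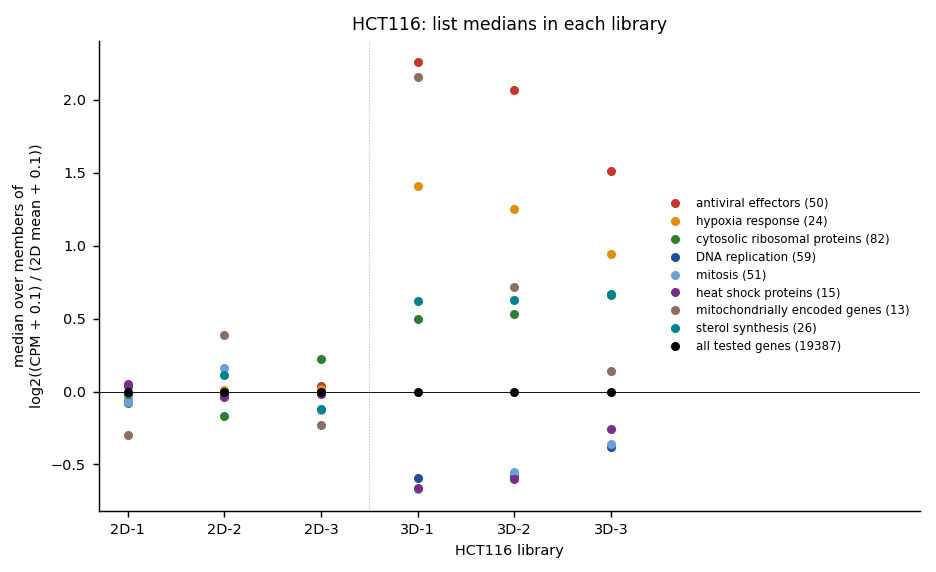
Median over list members of log2((CPM + 0.1) / (2D mean + 0.1)) in each HCT116 library, with the number of tested members in brackets. The antiviral and hypoxia lists are highest in 3D-1 and lowest in 3D-3, the proliferation and heat shock lists run the other way, and the mitochondrially encoded genes are at 2.16 in 3D-1 and at 0.14 in 3D-3.

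The promoters of the effectors held the interferon-stimulated response element far more often than promoters in general. The list was made of known interferon-stimulated genes, so that its share describes the list and does not test the growth response. The element was searched as GAAANNGAAA on both strands, from 250 bases before to 50 bases after each RefSeq start. It was found for 28 of the 39 effectors with a promoter in the RefSeq table (71.8%), against 3.92% of the 11933 tested genes with a promoter and 3.57% of all 35116 promoters. Of the 54 elements, counted at each start, 51 began within 200 bases before the start, and the median position was -76. The same sites of IFI27, IFI44 and PLSCR1 were counted at more than 1 start. Among the 677 genes that were higher by at least 1 and had a promoter, 64 (9.45%) held the element, compared with 3.85% of those higher by less than 1, 3.1% of the genes called lower and 3.65% of those not called. Listed effectors are among these 677 genes, so that this share is not independent of that of the list. The interferon gamma activated site TTCNNNGAA was found for 12 of the 39 effectors (30.8%), against 8.32% of tested genes and 7.66% of all promoters. Both motifs are short and their matches are a description of the letters, not of binding.

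The promoters of 6 effectors with small p that hold the element follow to show where it lies. They were chosen because they hold it, and OAS1, with one of the smallest p, has none in this window. Each runs 5′ to 3′ on the strand of its gene, from RefSeq on GRCh38.p14, and capitals mark the element, which on the opposite strand reads as its reverse complement.
IFI6, chr1:27672143-27672442, minus strand: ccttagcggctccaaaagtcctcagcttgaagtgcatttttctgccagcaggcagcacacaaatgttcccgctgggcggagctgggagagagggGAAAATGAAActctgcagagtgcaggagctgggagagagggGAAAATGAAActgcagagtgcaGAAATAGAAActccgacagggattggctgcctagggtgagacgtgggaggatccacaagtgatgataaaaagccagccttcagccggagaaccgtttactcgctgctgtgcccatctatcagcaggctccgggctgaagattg
IFIT1, chr10:89392373-89392672, plus strand: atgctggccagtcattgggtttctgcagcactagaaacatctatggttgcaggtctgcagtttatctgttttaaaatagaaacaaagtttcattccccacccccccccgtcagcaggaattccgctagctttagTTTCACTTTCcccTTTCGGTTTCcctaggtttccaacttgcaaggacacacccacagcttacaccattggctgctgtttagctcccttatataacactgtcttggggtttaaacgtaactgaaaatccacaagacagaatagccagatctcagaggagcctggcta
ISG15, chr1:1013247-1013546, plus strand: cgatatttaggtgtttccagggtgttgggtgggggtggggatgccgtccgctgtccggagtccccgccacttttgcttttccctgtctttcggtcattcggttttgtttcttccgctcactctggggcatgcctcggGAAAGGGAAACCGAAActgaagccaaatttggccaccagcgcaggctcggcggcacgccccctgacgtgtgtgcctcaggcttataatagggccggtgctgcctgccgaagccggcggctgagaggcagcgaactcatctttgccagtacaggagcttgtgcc
PARP9, chr3:122564251-122564550, minus strand: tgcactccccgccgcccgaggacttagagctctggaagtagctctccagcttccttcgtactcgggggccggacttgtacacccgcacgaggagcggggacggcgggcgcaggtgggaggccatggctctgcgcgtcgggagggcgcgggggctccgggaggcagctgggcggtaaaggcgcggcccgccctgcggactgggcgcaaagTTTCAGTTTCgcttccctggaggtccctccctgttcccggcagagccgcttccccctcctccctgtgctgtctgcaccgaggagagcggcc
BST2, chr19:17405581-17405880, minus strand: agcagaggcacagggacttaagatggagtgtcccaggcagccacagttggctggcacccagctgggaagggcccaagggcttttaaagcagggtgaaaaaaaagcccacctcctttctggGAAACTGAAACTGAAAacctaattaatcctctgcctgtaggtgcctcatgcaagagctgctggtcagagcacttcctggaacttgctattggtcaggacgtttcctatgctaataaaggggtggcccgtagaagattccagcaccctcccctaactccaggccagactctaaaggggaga
IFI27, chr14:94110486-94110785, plus strand: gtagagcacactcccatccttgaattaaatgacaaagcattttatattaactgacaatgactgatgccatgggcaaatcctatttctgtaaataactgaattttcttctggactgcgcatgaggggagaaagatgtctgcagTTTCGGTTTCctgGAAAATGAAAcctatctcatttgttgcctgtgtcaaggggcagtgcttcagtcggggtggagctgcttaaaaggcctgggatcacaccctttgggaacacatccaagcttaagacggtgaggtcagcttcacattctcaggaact

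IFI6 carries 3 copies, 2 of them inside a repeated stretch, PARP9 carries 1, and the other 4 promoters carry 2. In ISG15 and BST2 the copies overlap and so form a longer run of GAAA repeats. PARP9, a member of the poly(ADP-ribose) polymerase family that works with the ubiquitin ligase DTX3L, rose from 21.4, 22.3 and 19 CPM to 146, 138 and 92.5 CPM (log2 2.59 ± 0.15, adjusted p = 1.65e-11). IFI27, whose product sits in mitochondrial and nuclear membranes, rose from 1.72, 1.04 and 1.16 CPM to 41.4, 30.7 and 21.9 CPM (log2 4.58 ± 0.30, adjusted p = 1.96e-10). The 2D and 3D libraries of both genes were far apart.

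Next, the genes upstream of the effectors were examined, from ligands to transcription factors. Of 22 interferon genes, 16 had no count in any HCT116 library. IFNL1 had 0, 1 and 0 counts in 2D and 6, 5 and 2 in 3D, IFNL2 had 2, 2 and 1 counts in 3D only, and IFNL3 had 8, 7 and 1 counts in 3D only. IFNB1 had 1 count, in 3D-2, and IFNE had 3, 6 and 2 counts in 2D and 1, 2 and 5 in 3D. None of the ligands but IFNE passed the filter on low counts, so that a difference in the lambda genes was not tested.

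Of 6 tested receptor genes 4 were higher and 1 lower, beside 16.8% and 12.3% of all tested genes, with log2 fold changes from -0.38 to 0.73. IFNAR1 was at 40.5, 42.4 and 31.9 CPM in 2D and 32.8, 29.6 and 29.6 CPM in 3D, with overlapping groups (log2 -0.32, adjusted p = 0.13). IFNAR2 had a log2 fold change of -0.38 (adjusted p = 0.032, or 0.17 without 2D-2) and IFNLR1 one of 0.30 (adjusted p = 0.0359, or 0.21 without 2D-3). Both calls were also lost without 3D-2 or 3D-3. The call of IFNAR2 was lost under 4 of the 12 alternatives and that of IFNLR1 under 9, which include leaving out any 1 library. The transcript of JAK1 did not pass the test (log2 0.04, adjusted p = 0.889), and that of JAK2, which serves the interferon gamma receptor, fell from 7.7, 7.53 and 5.49 CPM to 4.02, 3.69 and 3.74 CPM (adjusted p = 0.00875).

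Transcription factors of the response rose. STAT2 went from 24.3, 26.4 and 22 CPM to 58.7, 59.0 and 35.8 CPM (log2 1.08, adjusted p = 4.9e-06). IRF9, which gives ISGF3 its DNA contact, went from 5.32, 5.44 and 5.61 CPM to 62.4, 56.3 and 40.5 CPM (log2 3.28 ± 0.17, adjusted p = 4.56e-12). The exons of IRF9 share 48.4% of their length with those of the overlapping gene AL136295.5 on the same strand, and reads from there cannot be assigned to either. IRF7, the main inducer of type I interferon genes, went from 4.05, 3.71 and 4.68 CPM to 52.9, 51.4 and 30 CPM (log2 3.43, adjusted p = 1.81e-10). For STAT2, IRF9 and IRF7, no 2D library reached the level of any 3D library. Of the 23 tested genes of ligands, receptors and signaling, 14 were higher and 2 lower, with a median of 0.47 beside 0.01 for all tested genes.

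Of 8 tested sensors of nucleic acids 6 were higher and none lower, and of 6 tested adaptors and kinases 3 were higher and 1 lower. DDX58, which encodes RIG-I, rose from 8.28, 8.94 and 8.12 CPM to 57.2, 59.0 and 37.9 CPM (log2 2.6 ± 0.15, adjusted p = 1.65e-11). IFIH1, which encodes MDA5, rose from 11, 12.6 and 9.46 CPM to 41.4, 41.8 and 27.3 CPM (log2 1.74, adjusted p = 2.61e-07). The adaptor MAVS was at 218, 227 and 159 CPM in 2D and 159, 182 and 142 CPM in 3D and did not pass the test (log2 -0.33, adjusted p = 0.0792). On the DNA side, CGAS had at most 0.0863 CPM, under the floor, in every HCT116 library, whereas TMEM173, which encodes STING, rose from 15.8, 17.2 and 16.5 CPM to 40, 32.2 and 21.6 CPM (log2 0.92, adjusted p = 0.00237). In the whole sensing list 10 of 19 tested genes were higher and 2 lower, with 6 higher when 3D-2 was left out.

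Antigen presentation by HLA class I rose as a group. Of 22 tested genes 18 were higher and none was lower, with a median log2 fold change of 0.99 and 11 genes past 1. All 6 heavy chain genes were higher, at a median of 1.23. HLA-F rose from 4.92, 5.26 and 8.12 CPM to 33.4, 26.6 and 19.7 CPM (log2 2.12, adjusted p = 5.26e-08). B2M, the common light chain, rose from 212, 209 and 245 CPM to 591, 505 and 460 CPM (log2 1.22, adjusted p = 6.75e-08). HLA heavy chains are close copies of each other, so that single members are uncertain. PSMB9, an immunoproteasome subunit, rose from 4.17, 4.89 and 6.93 CPM to 22.7, 21.1 and 16.8 CPM (log2 1.92, adjusted p = 1.35e-07), and TAP1, the peptide transporter, from 52.7, 49.4 and 54.8 CPM to 137, 127 and 118 CPM (log2 1.28, adjusted p = 5.81e-08). Promoters of 11 of the 18 class I genes with a RefSeq promoter held the interferon-stimulated response element (61.1%).

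Class II genes rose at far lower levels, and 5 of 8 tested were higher, or 3 without 2D-2 or 3D-1. HLA-DRB1 was at 1.39, 1.21 and 2.92 CPM in 2D and at 6.72, 6.18 and 6.18 CPM in 3D (log2 1.79, adjusted p = 0.000742), and CD74 was at most at 0.167 CPM in the 6 libraries. Among immune checkpoint genes, LGALS9, which encodes galectin-9, rose from 0.423, 0.719 and 0.417 CPM to 13, 8.63 and 3.88 CPM (log2 4.01, adjusted p = 3.7e-08). CD274, which encodes PD-L1, was at 2.24, 2.79 and 2.47 CPM in 2D and at 3.62, 3.69 and 3.31 CPM in 3D without overlap, but did not pass the test (log2 0.50, adjusted p = 0.0666). Of the complement genes, 8 of 13 were higher, among them C3, from 0.211, 0.201 and 0.128 CPM to 0.997, 0.719 and 0.936 CPM (log2 2.26, adjusted p = 0.00215). Guanylate-binding protein genes were close to the floor in 2D: GBP2 had 3 counts over the 2D libraries and 270 over the 3D libraries (151, 77 and 42), a ratio of 98.4 with a 95% counting interval of 33.3 to 480.0, and GBP1 had 2 and 36 counts, a ratio of 19.7 (5.07 to 169.0).

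Inflammatory genes outside this programme moved less. Of 23 tested chemokines and cytokines 5 were higher, beside 16.8% of all tested genes, with a median of 0.49. The number higher was 3 without 2D-2 or 3D-1. Of 19 NF-kB genes 9 were higher and 2 lower, with a median of 0.23. CXCL8 was at 0.846, 0.719 and 1.38 CPM in 2D and at 4.16, 1.7 and 3.14 CPM in 3D, a difference that did not pass the test given the spread in 3D (log2 1.62, adjusted p = 0.0572). BIRC3, an inhibitor of apoptosis that NF-kB induces, rose from 5.23, 4.86 and 4.11 CPM to 17.1, 9.87 and 7.55 CPM (log2 1.28, adjusted p = 0.000138). Without 3D-1, 4 NF-kB genes were higher and 2 lower.

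Hypoxia genes were the second large group to rise. Of 24 tested 20 were higher and 1 lower, and the median log2 fold change was 1.22. NDRG1, a stress-induced gene used as a hypoxia marker (chr8:133237171-133302022, minus strand), rose from 38, 40.5 and 53.4 CPM to 999, 1080 and 619 CPM (log2 4.36 ± 0.24, adjusted p = 1.65e-11). ANGPTL4, a secreted inhibitor of lipoprotein lipase, rose from 2.02, 2.1 and 4.4 CPM to 119, 89.3 and 44.1 CPM (log2 4.89 ± 0.39, adjusted p = 5.32e-09). CA9, the membrane carbonic anhydrase of hypoxic tumour cells, rose from 0.362, 0.316 and 1.09 CPM to 8.28, 7.55 and 5.58 CPM (log2 3.62, adjusted p = 1.35e-05). In these genes the 2D and 3D libraries were well apart, with 3D-3 the lowest of the 3D libraries.

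VEGFA, the angiogenic growth factor, rose less, from 36.0, 40.4 and 37.6 CPM to 100, 74.5 and 55.5 CPM (log2 1.01). HIF1A, whose product is controlled mostly by its stability, was the member called lower, with 177, 189 and 139 CPM in 2D and 118, 126 and 143 CPM in 3D, which overlap (log2 -0.39, adjusted p = 0.0447), a call lost without 2D-1, 2D-2, 3D-1 or 3D-2, with adjusted p up to 0.197. Genes of survival and mitophagy moved most, with 7 of 7 higher at a median of 2.33, whereas of the 7 genes of oxygen sensing 4 were higher.

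Glycolysis followed at smaller size, with 18 of 26 tested genes higher, 1 lower and a median of 0.57. SLC2A1, the glucose transporter GLUT1, rose from 96.1, 86.0 and 87.6 CPM to 244, 245 and 188 CPM (log2 1.33, adjusted p = 4.08e-08). PDK1, which holds pyruvate back from oxidation in mitochondria, rose from 9.06, 8.77 and 7.57 CPM to 33.6, 30.3 and 33.0 CPM (log2 1.93, adjusted p = 3.38e-09), and LDHA, which makes lactate, from 1170, 1050 and 1200 CPM to 1830, 1860 and 1760 CPM (log2 0.67, adjusted p = 3.77e-06). HK2, a hexokinase, had overlapping groups and did not pass the test (log2 0.32, adjusted p = 0.0518). The core of the hypoxia response element, ACGTG, was found in the promoters of 10 of 19 hypoxia genes (52.6%) and 17 of 25 glycolysis genes (68.0%), against 31.4% of tested genes and 21.4% of all promoters. Both lists were made of known genes, so that the shares describe the lists and do not test the growth response.

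Sterol synthesis was the most uniform of the metabolic groups, with 23 of 26 genes higher, none lower and a median of 0.63. HMGCS1, which makes the first committed intermediate, rose from 81.6, 95.2 and 71.1 CPM to 140, 169 and 172 CPM (log2 0.96, adjusted p = 0.000108). The transcription factor gene SREBF2 rose from 106, 120 and 91.4 CPM to 227, 252 and 188 CPM (log2 1.07, adjusted p = 4.86e-07). SCD, which puts a double bond into fatty acids, belongs to the fatty acid synthesis list. In that list 4 of 8 genes were higher, with a median of 0.26. SCD rose from 1740, 1940 and 1310 CPM to 3120, 3420 and 2770 CPM (log2 0.90, adjusted p = 0.00221). Lysosomal genes rose with a median of 0.38, and 12 of 20 were higher. NEU1, the lysosomal sialidase, led them, from 20.7, 20.7 and 24.9 CPM to 53.9, 57.2 and 59.8 CPM (log2 1.36, adjusted p = 5.24e-08).

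**Figure D4:**
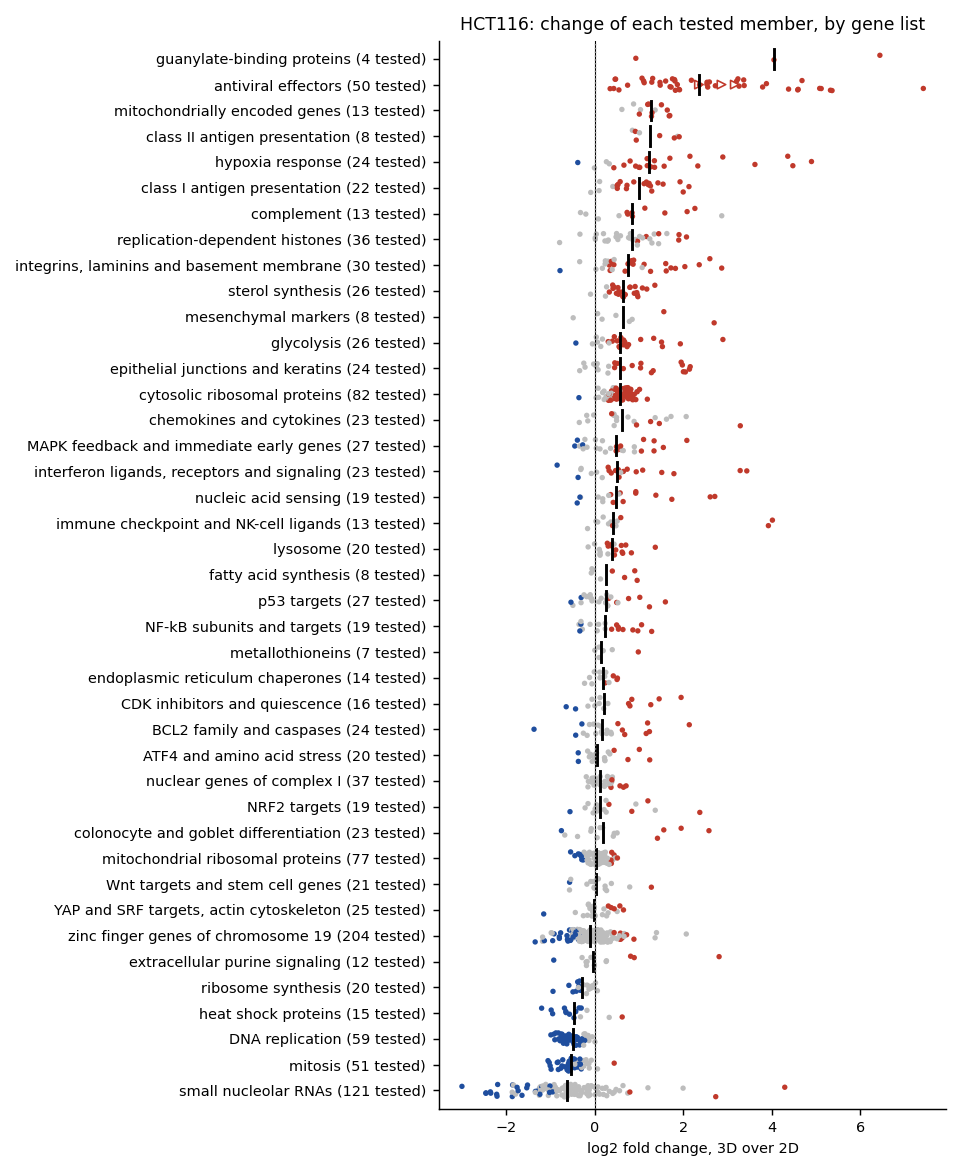
Log2 fold change of 3D over 2D for each tested member of the gene lists, red where called higher, blue where called lower and grey where not called, with a black bar at the median of the genes drawn. Open triangles are lower bounds for IFI44L, XAF1 and MX2, and genes at 0 in every library of one condition are otherwise left out. The antiviral list spreads furthest to the right, and DNA replication, mitosis and heat shock genes lie almost wholly left of 0.

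Genes of DNA replication fell by small and even amounts. None of 59 tested was higher and 48 were lower, against 12.3% of all tested genes, with a median of -0.50 and a range from -1.0 to 0.00. Each functional class took part: 14 of 17 licensing and helicase genes, 10 of 13 polymerase and clamp genes, 8 of 9 cyclin and E2F genes and 7 of 8 recombination genes were lower. DNMT1, the maintenance DNA methyltransferase, was at 453, 406 and 388 CPM in 2D and at 244, 283 and 267 CPM in 3D (log2 -0.65 ± 0.08, adjusted p = 1.01e-06). BLM, the Bloom syndrome helicase, was at 49.6, 51.6 and 41.0 CPM in 2D and at 23.7, 25.6 and 26.6 CPM in 3D (log2 -0.91, adjusted p = 1.16e-06), and PCNA, the sliding clamp, at 469, 422 and 491 CPM and at 334, 308 and 357 CPM (log2 -0.47, adjusted p = 0.000466). No 3D library reached the 2D range in these genes. TK1 (log2 0.00) and E2F1 (log2 -0.06) were not called.

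Mitotic genes fell in the same way, with 38 of 51 lower, 1 higher and a median of -0.54. All 10 checkpoint and kinetochore genes were lower, as were 8 of 9 condensin and chromosome genes. TOP2A, topoisomerase II alpha, was at 279, 321 and 175 CPM in 2D and at 110, 132 and 148 CPM in 3D (log2 -0.99, adjusted p = 0.000227), so that 2D-3 was close to the 3D libraries. ASPM, a spindle pole gene, was at 37.4, 55.8 and 30.6 CPM and at 17.6, 19.3 and 22.5 CPM (log2 -1.06, adjusted p = 0.000422). The cyclin gene CCNB1 had overlapping groups, with 281, 317 and 390 CPM in 2D and 245, 258 and 299 CPM in 3D, and was not called (log2 -0.30, adjusted p = 0.0572). CDC25B, a phosphatase that activates CDK1, was the only member called higher, from 146, 161 and 202 CPM to 223, 240 and 225 CPM (log2 0.43, adjusted p = 0.00261).

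The promoters of these lists carried the letters of their known regulators. Since the lists were made of known cell cycle genes, the list shares describe the lists and do not test the growth response. The cell cycle homology region TTTGAA was found for 35 of 45 mitotic genes (77.8%), 7.69% of DNA replication genes and 13.8% of tested genes. The E2F site, TTTGGCGC or TTTCGCGC, was found for 17 of 52 DNA replication genes (32.7%), 6.67% of mitotic genes and 2.23% of tested genes. Among all 1772 genes called lower with a promoter the shares were 16.8% and 4.63%, and over all promoters 15.2% and 1.15%.

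Cell cycle inhibitors did not move as a block. Of 16 genes of inhibition and quiescence 6 were higher and 2 lower. CCNG2, a cyclin of resting cells, rose from 1.93, 4.54 and 3.37 CPM to 14.7, 12.3 and 11.1 CPM (log2 1.95, adjusted p = 1.4e-06), CDKN1C, which encodes p57, from 2.39, 2.76 and 3.43 CPM to 7.18, 7.45 and 8.82 CPM (log2 1.45, adjusted p = 2.91e-06), and CDKN1A, which encodes p21, from 208, 220 and 211 CPM to 362, 349 and 372 CPM (log2 0.76, adjusted p = 0.025), although with any 1 of the 6 libraries left out its adjusted p lay between 0.0552 and 0.0811. CDKN1B, which encodes p27, was at 21.8, 22.1 and 22.1 CPM in 2D and at 20.1, 20.9 and 24.8 CPM in 3D and was not called. Of 27 p53 targets 6 were higher and 2 lower, beside 16.8% and 12.3% of all tested genes. The number higher was 3 without 2D-1, 2D-2, 3D-1 or 3D-2. GDF15, a stress cytokine, rose from 53.8, 56.4 and 52.2 CPM to 201, 149 and 139 CPM (log2 1.59, adjusted p = 1.72e-05), while MDM2 fell from 194, 201 and 138 CPM to 125, 120 and 122 CPM (log2 -0.54, adjusted p = 0.0171, or 0.0793 without 2D-1 and 0.0922 without 2D-2).

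In the BCL2 family, 4 of 11 tested death genes were higher and none lower, and of 4 tested survival genes 1 was lower and none higher. BCL2, which blocks apoptosis, fell from 4.44, 5.09 and 3.82 CPM to 1.46, 1.47 and 2.21 CPM (log2 -1.38, adjusted p = 0.000194). BMF and BBC3, which both encode BH3-only inducers of death, rose, BMF from 0.181, 0.633 and 0.706 CPM to 2.93, 2.35 and 1.4 CPM (log2 2.13, adjusted p = 0.000133) and BBC3 from 15.7, 14.8 and 15.3 CPM to 40.1, 39.6 and 28.0 CPM (log2 1.23, adjusted p = 8.52e-06). MCL1, the most abundant survival gene named here, had overlapping groups and was not called (log2 -0.12, adjusted p = 0.525). Of 9 caspases 3 were higher and 2 lower. In the whole list 7 of 24 tested genes were higher and 3 lower, beside 16.8% and 12.3% of all tested genes.

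Heat shock proteins were lower, in 11 of 15 genes, with 1 higher and a median of -0.47. HSPH1, a co-chaperone of HSP70 (chr13:31134974-31162388, minus strand), was at 418, 380 and 383 CPM in 2D and at 124, 168 and 220 CPM in 3D (log2 -1.20 ± 0.15, adjusted p = 3.06e-06). HSP90AA1, the inducible HSP90, was at 5140, 4840 and 4900 CPM and at 2420, 2990 and 3820 CPM (log2 -0.69, adjusted p = 0.00114). In both genes 3D-3 was the 3D library nearest to 2D. Without 3D-1, 7 of the 15 were lower. Chaperones of the endoplasmic reticulum did not share this fall, since 4 of 14 were higher, or 1 to 2 with 1 of the libraries other than 2D-3 left out, none was lower, and HSPA5, their main member, had overlapping groups (log2 0.11, adjusted p = 0.48). Of 20 genes of ATF4 and amino acid stress 4 were higher and 2 lower, and 2 were higher when any library but 2D-3 was left out. Over all tested genes 16.8% were higher and 12.3% lower.

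Epithelial junction and keratin genes were higher in 15 of 24 cases and lower in none, with a median of 0.57. CLDN4, a tight junction claudin (chr7:73799542-73832693, plus strand), rose from 87.5, 92.0 and 119 CPM to 439, 440 and 354 CPM (log2 2.04 ± 0.14, adjusted p = 2.37e-10). CLDN3 rose from 3.9, 4.0 and 7.48 CPM to 26.4, 24.4 and 16.5 CPM (log2 2.14, adjusted p = 6.2e-08), and CDH1, which encodes E-cadherin, from 98.6, 91 and 77.3 CPM to 151, 147 and 119 CPM (log2 0.64, adjusted p = 0.000609). Of 8 tested keratin genes 6 were higher, with a median of 1.63, and KRT15 rose from 14.6, 11.5 and 12.8 CPM to 62.2, 52.0 and 41.5 CPM (log2 2.00, adjusted p = 4.09e-07). The simple epithelial keratin gene KRT18 (log2 0.05, adjusted p = 0.849) and EPCAM (log2 0.03, adjusted p = 0.885) had overlapping groups. Mesenchymal genes were few and low, and 2 of 8 were higher, of which VIM, which encodes vimentin, went from 0.785, 0.978 and 0.802 CPM to 2.66, 2.61 and 2.31 CPM (log2 1.56, adjusted p = 0.000412).

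Genes of cell adhesion to matrix rose with the junction genes. Of 30 tested integrin, laminin and basement membrane genes 20 were higher and 1 lower, with a median of 0.75. ITGB4, the hemidesmosome integrin, rose from 136, 119 and 129 CPM to 446, 458 and 259 CPM (log2 1.6, adjusted p = 1.03e-07). LAMB3, which encodes a laminin chain, rose from 40.2, 35.5 and 57.7 CPM to 176, 153 and 109 CPM (log2 1.72, adjusted p = 5.15e-07). ITGB1, the most widely shared integrin chain, had overlapping groups and was not called (log2 0.17, adjusted p = 0.494). PLAUR, the urokinase receptor gene, rose from 17.6, 16.1 and 22 CPM to 91.7, 73.4 and 62.7 CPM (log2 2.03, adjusted p = 3.58e-08), and MMP7, an epithelial matrix protease gene, from 3.17, 2.88 and 3.5 CPM to 19.5, 15.6 and 13.8 CPM (log2 2.36, adjusted p = 1.09e-06).

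Signals that depend on cell shape or growth factors gave mixed results. Of 25 tested YAP and SRF targets 5 were higher and 1 lower, beside 16.8% and 12.3% of all tested genes, with a median of -0.02. The number higher was 2 without 2D-2 and 3 without 3D-1 or 3D-2. The YAP targets CTGF (log2 -0.03, adjusted p = 0.999) and CYR61 (log2 0.26, adjusted p = 0.466) had overlapping groups. Of 27 MAPK genes 10 were higher and 3 lower, or 1 lower without 2D-2 or 3D-1. AREG, an EGF receptor ligand gene, rose from 139, 143 and 163 CPM to 364, 296 and 293 CPM (log2 1.10, adjusted p = 6.97e-07), while DUSP6, a feedback phosphatase gene of ERK, fell from 56.8, 65.1 and 58.1 CPM to 40.2, 40.2 and 50.8 CPM (log2 -0.46, adjusted p = 0.0261, or 0.0865 to 0.104 without 3D-1, 3D-2 or 2D-2).

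Wnt targets and stem cell genes were close to unmoved as a group, with 1 of 21 higher, 1 lower and a median of 0.00. AXIN2, a feedback inhibitor that β-catenin induces, fell from 21.6, 25.9 and 23 CPM to 14.2, 16.0 and 17.2 CPM (log2 -0.57, adjusted p = 0.00126), and NOTUM, a feedback inhibitor that is secreted, rose from 3.08, 2.07 and 4.56 CPM to 7.31, 8.07 and 8.06 CPM (log2 1.27, adjusted p = 0.000272). MYC had overlapping groups (log2 0.08, adjusted p = 0.721). Of 23 colonocyte and goblet genes 4 were higher, or 2 without 2D-1, and 1 was lower, with a median of 0.05. The shares over all tested genes were 16.8% and 12.3%. CEACAM1, a cell adhesion gene of mature colonocytes, rose from 0.453, 0.719 and 0.674 CPM to 4.79, 3.99 and 2.31 CPM (log2 2.58, adjusted p = 1.31e-07), while CA2, a carbonic anhydrase of the colonic surface, fell from 84.9, 86.5 and 84.4 CPM to 45.2, 47.3 and 58.8 CPM (log2 -0.76, adjusted p = 0.000883).

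Genes of the ribosome and of ribosome synthesis went opposite ways. Of 82 cytosolic ribosomal protein genes 61 were higher and 1, RPL7L1, was lower, with a median of 0.56, and ribosomal protein genes took 5.92%, 5.74% and 7.31% of the counts in 2D and 8.60%, 8.78% and 9.39% in 3D. With 1 library left out, 31 of them were higher without 2D-2, 35 without 2D-1 and 38 without 3D-3. RPL13A rose from 1270, 1170 and 1680 CPM to 2740, 2730 and 2810 CPM (log2 1.01, adjusted p = 0.00017). None of 20 ribosome synthesis genes was higher and 9 were lower, with a median of -0.28. UTP20, which processes the precursor of 18S rRNA, fell from 109, 97.4 and 75.2 CPM to 42.9, 50.8 and 52.3 CPM (log2 -0.95, adjusted p = 8.46e-06). Mitochondrial ribosomal proteins, with 5 of 77 higher and 7 lower, and nuclear genes of complex I, with 6 of 37 higher, had medians of 0.03 and 0.12. With 1 library left out 0 to 8 of the former and 0 to 9 of the latter were higher. Of all tested genes 16.8% were higher and 12.3% lower.

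Transcript length moved with the fold change. Among protein-coding genes with at least 1 CPM, 30% of the shortest of 5 bins by exonic length were higher and 7.82% were lower, with a median of 0.18, whereas 12.2% of the longest of these 5 bins were higher and 22.1% lower, with a median of -0.14. Library 2D-3 lay with the 3D libraries in this respect, at medians of 0.14 for the shortest and -0.17 for the longest of these 5 bins over the 2D mean, against 0.15 to 0.21 and -0.18 to -0.10 in 3D. When the trend with length was taken out of each library, an alternative chosen after seeing the data, 62 ribosomal protein genes were higher with a median of 0.50, 50 of 50 antiviral effectors were higher with a median of 2.49, and 51 DNA replication and 41 mitotic genes were lower.

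Genes of the mitochondrial genome rested on 1 library. Of 13 tested 9 were called higher, with a median of 1.28, but their medians over the 2D mean were 2.16 in 3D-1, 0.72 in 3D-2 and 0.14 in 3D-3, and without 3D-1 the test called 2 of 13 with a median of 0.45. MT-CO1, which encodes a subunit of cytochrome c oxidase, was at 1310, 2040 and 1310 CPM in 2D and at 9160, 3540 and 2360 CPM in 3D (log2 1.69, adjusted p = 0.0018). When edgeR was fitted to the 6 HCT116 libraries alone, its adjusted p was 0.0668 and 0 of the 13 genes were called, 4 of them with an unadjusted p under 0.05, whereas DESeq2 on all libraries called 10.

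Small nucleolar RNAs were the group with the largest decreases. Of 121 tested 23 were lower and 3 higher, beside 12.3% and 16.8% of all tested genes, and the median was -0.63. Library 3D-1 differed from 3D-2 and 3D-3, with medians over the 2D mean of -0.03, -0.89 and -1.0 in this order. Without 3D-1 the number lower was 42, whereas it was 9 without 2D-1, 3D-2 or 3D-3 and 11 without 2D-2. SNORD14D, annotated inside the heat shock gene HSPA8 (chr11:123058909-123058995, minus strand), was at 1.66, 1.32 and 1.09 CPM in 2D and at 0.299, 0.0653 and 0.134 CPM in 3D (log2 -3.01, adjusted p = 0.000511). Of the 23 lower genes 19 lie wholly inside same-strand exons of another annotated gene or transcript, as do 84 of the 121 tested, so that their reads cannot be told apart from those of the host transcript, and poly(A) selection captures few mature small RNAs.

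Finally, the growth response of HCT116 was compared with the mean response of HT29, LS513 and LS174T by an interaction contrast in the same edgeR fit. The response was higher in HCT116 for 591 genes (3.05% of those tested) and lower for 286 (1.48%). The first count was 381 without 3D-1 and 342 without 3D-2, and the second 185 without 3D-2. Of the 3253 genes called higher in HCT116, 608 were called higher in each of the other 3 lines and 850 in none of them, and of the 2384 called lower, 477 were called lower in each and 490 in none.

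Antiviral effectors stood out in this contrast, with a higher response in HCT116 for 31 of 50, while the list median was 2.45 in HCT116, 1.28 in HT29, 0.38 in LS513 and 0.08 in LS174T. The largest differences were those of IFITM1, at 5.70 (adjusted p = 0.00039), GBP2, at 5.33 (adjusted p = 2.59e-05), IFIT1, at 4.82 (adjusted p = 0.000258), and OAS1, at 4.19 (adjusted p = 9.79e-10). Upstream of them, the difference of IRF9 was 2.87 (adjusted p = 9.79e-10).

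Adhesion genes differed as well, with 16 of 30 tested members higher in HCT116 and none lower. ITGB4 had log2 fold changes of -0.21, 0.20 and -0.04 in HT29, LS513 and LS174T and a difference of 1.61 (adjusted p = 3.6e-06). Of the 24 tested hypoxia genes 4 had a higher and 1 a lower response in HCT116, beside 3.05% and 1.48% of all tested genes. ANGPTL4 had fold changes of 5.30, 5.64 and 5.01 on the log2 scale in the other lines, beside 4.89 in HCT116, and the list medians were 0.70, 1.10 and 1.36 beside 1.22. For the mitosis list the medians were -0.78, -0.50 and -0.31 beside -0.54.

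At the other end, colonocyte and goblet genes were at a median of 0.05 in HCT116 and of 1.74, 0.96 and 0.81 in the other lines. Of the 23 tested, 1 had a lower and 1 a higher response, beside 1.48% and 3.05% of all tested genes. The 10 goblet genes together held only 6.59 to 7.58 CPM per HCT116 library in 2D and 6.08 to 13.9 CPM in 3D. Fitted changes of genes near the floor shrink towards 0. CDX2, the intestinal transcription factor gene, was at 18.6, 17.9 and 20.9 CPM in 2D and at 19.9, 24.2 and 20.6 CPM in 3D in HCT116, and its response was below the mean of the other lines by -1.04 (adjusted p = 6.25e-05). The lowest differences were those of C1QL1, at -3.83 (adjusted p = 0.000624), and TMEM45A, at -3.28 (adjusted p = 2.58e-05), where the log2 fold changes were 0.65 in HCT116 and 0.46, 6.53 and 4.79 in the other lines. The call of TMEM45A in HCT116 was lost under 6 of the 12 alternatives. SLC43A3, a solute carrier gene, had log2 fold changes of -0.37 in HCT116 (adjusted p = 0.0481) and of 4.12 and 4.18 in HT29 and LS513. It did not rise in LS174T, which also enters the mean, and the difference was -3.04 (adjusted p = 0.0079). The call of SLC43A3 in HCT116 was lost under 7 of the 12 alternatives, with an adjusted p of 0.202 without 2D-1. AP000781.2, which shares 95.5% of its exons with PRG2 and SLC43A3 and cannot be told apart from them, was at -2.73 (adjusted p = 0.00964).

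**Figure D5:**
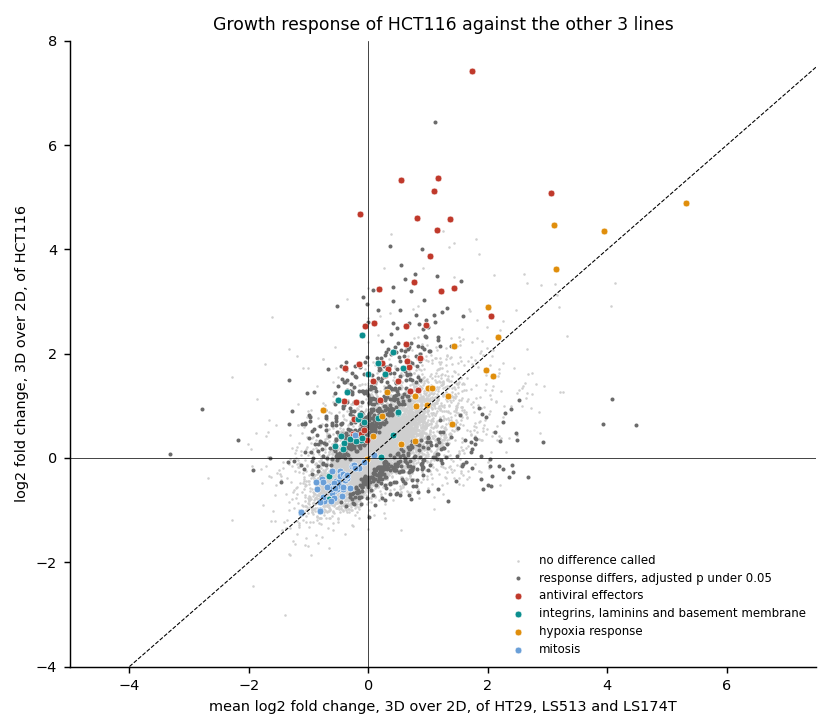
Log2 fold change of 3D over 2D in HCT116 (vertical axis) against the mean of the other 3 lines (horizontal axis), for the 14218 tested genes with at least 1 CPM in one HCT116 growth condition. Points on the dashed line respond alike, antiviral effectors and adhesion genes lie above it, hypoxia and mitosis genes lie along it, and dark grey marks genes whose response differed at an adjusted p under 0.05.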

How the data were processed

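RNA from HCT116 cells was sequenced as stranded poly(A) libraries, 3 per growth condition. The authors trimmed adapters (Trim Galore 0.4.1), removed short and low-quality reads, aligned the rest to the human genome with STAR, discarded reads that aligned more than once and counted overlaps with Ensembl exons per gene (HTSeq 0.5.3); the strand option of the counting is not given in the sources used here. The deposited values are raw counts per gene and technical replicate, without normalization. The submitters' notes list hg19, but 57980 of the 58243 gene identifiers match GENCODE 29 on GRCh38, which gave names, positions and exonic lengths.

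The 8 technical replicates of each HCT116 library differed by no more than counting error (median chi-square per degree of freedom 0.92 to 0.933, against 5.42 to 5.94 between libraries of a condition) and were summed, which left 29705702 to 31925024 counts per library. Groups were taken from the sample labels. All 24 libraries were fitted in edgeR 4.0.16 (R 4.3.3) with filterByExpr, TMM normalization, a robust quasi-likelihood model and 1 coefficient per line and growth condition, without a pairing of libraries. The contrasts were HCT116 3D minus 2D, and that difference minus the mean difference of the other 3 lines. Tests were two-sided, and genes with a Benjamini-Hochberg adjusted p below 0.05 over all 19387 tested were called. Fitted fold changes shrink towards 0 for genes near the floor of 3 counts. With 3 libraries against 3 an exact permutation test cannot go below p = 0.1, so none was used. The pipeline was tested on simulated data.

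The gene lists, and HCT116 growth as a subject, were chosen with earlier results of these data known. Named genes are the 12 largest increases and decreases and the 8 smallest p in each direction (among called genes without overlap that reached a mean of 1 CPM in either condition), key members of each list, up to 6 called members with the largest change, and the 4 largest differences from the other lines in each direction. CDC25B, HIF1A, HSPA8, IFNAR2, the interferon ligands, ITGB4, JAK1, JAK2, LY6E, RPL7L1, RTP4, TK1 and ZC3HAV1 were chosen after their values were seen. Some key members of the lists are not reported here. Promoters come from RefSeq, with 39 of 50 antiviral effectors matched by Ensembl identifier or symbol. In the shares of genes, a gene with several starts was counted once, whereas elements were counted at each start. Alternatives were DESeq2's size factors, DESeq2 1.42.0 itself, a replicate block, a looser filter that kept every gene with 1 count or more, only the 6 HCT116 libraries, leaving out each library in turn and, added after seeing the data, an offset for exonic length. Equal library numbers did not deviate together (correlations of -0.146, 0.058 and -0.067).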

Additional observations from a re-analysis of the deposited data

Results flagged for a closer look

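Differences between the growth response of HCT116 and the mean response of HT29, LS513 and LS174T met the test of the difference for 591 genes in the upward and 286 in the downward direction, with edgeR's interaction contrast and Benjamini-Hochberg adjustment. The causes of these differences were not tested.

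Among the genes named, the response was larger in HCT116 for IFITM1 (5.70 on the log2 scale), GBP2 (5.33), IFIT1 (4.82), OAS1 (4.19), IRF9 (2.87) and ITGB4 (1.61). It was smaller for C1QL1 (-3.83), TMEM45A (-3.28), SLC43A3 (-3.04), AP000781.2 (-2.73) and CDX2 (-1.04). AP000781.2 overlaps SLC43A3, and their counts cannot be told apart. All 11 differences were called again under each alternative that gave the contrast, the replicate block included.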

How the results depend on the processing

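No result reversed under the 12 alternatives, and no gene called in HCT116 was called in the opposite direction under any of them. Counts of higher calls were 2791 to 3438 and of lower calls 1820 to 2594 under the settings that kept all 6 libraries. With 1 library left out they were 2217 to 3116 and 1530 to 2870, those at a log2 fold change of at least 1 were 923 to 1313, and those at -1 or less 115 to 314. Leaving out 2D-1 gave the fewest lower calls. The number of genes with a higher response in HCT116 than in the other lines was 342 to 661 with 1 library left out, and that with a lower response 185 to 398; DESeq2 gave 522 for the latter. The median of the antiviral effectors was 2.19 to 2.66 with 1 library left out and 1.89, with 44 of 50 called when only the 6 HCT116 libraries were fitted. That last fit set the filter on low counts again, so that members with few counts in HCT116 entered neither the median nor the calls. What else moved these values was not tested. The contrast with the other lines has no value in the fit of the 6 HCT116 libraries, which leaves those lines out.

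With the replicate block, the counts were 2794 higher and 1820 lower, and 383 and 131 for the differences from the other lines; the samples share only a number, and not every library correlated best with its own number. Of 107 calls on genes and responses named in the text 92 were kept under every alternative that gave a value and 15 were lost under at least 1. The floor of 3 counts per library, 0.094 to 0.101 CPM, limits what can be said of genes near 0.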

Other observations

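Of 12 tested genes of extracellular purine signaling 3 were higher and 1 lower, beside 16.8% and 12.3% of all tested genes. P2RX7 had overlapping groups, with 1.33, 2.36 and 1.96 CPM in 2D and 2.03, 1.7 and 1.87 CPM in 3D. Of 7 metallothioneins 1 was higher, against list medians of 0.19 in HCT116 and of 1.38, 0.82 and 1.22 in HT29, LS513 and LS174T. Of 19 NRF2 targets 4 were higher and 1 lower, or 2 higher with any 1 library left out, again beside 16.8% and 12.3% of all tested genes. AKR1C3, an aldo-keto reductase gene, rose from 0.362, 0.575 and 1.32 CPM to 4.26, 3.43 and 3.84 CPM (log2 2.37, adjusted p = 3.1e-05). Of 8 fatty acid synthesis genes 4 were higher, beside 16.8% of all tested genes, or 3 without 2D-3 or 3D-2, and none lower in any of these fits.

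Replication-dependent histone genes, whose main transcripts end without a poly(A) tail, were called higher in 6 and lower in 0 of 36 cases, a share of higher calls near the 16.8% of all tested genes, and 3 were higher without 2D-1 or without 2D-2. HIST1H2AC rose from 2.51, 2.1 and 3.3 CPM to 11.9, 10.1 and 7.45 CPM (log2 1.90, adjusted p = 0.00067). Of 204 tested zinc finger genes of chromosome 19, 23 were lower and 7 higher, beside 12.3% and 16.8% of all tested genes, with a median of -0.05, and with 1 library left out the number lower went down to 8 (without 2D-1 or 2D-2). Over all 1450 tested genes of that chromosome, 22.4% were higher and 6.07% lower. On chromosome 13, 9.7% of 361 tested genes were higher and 16.6% lower.

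By gene type, 18.8% of 14700 protein-coding genes were higher and 14.6% lower. Among antisense transcripts the shares were 10.2% and 2.99% of 1338, and among processed pseudogenes 16.6% and 2.17% of 507. Counts of pseudogenes and antisense genes can hold reads of their parent or partner genes.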
